A study of Mus musculus with 4 samples.

Results

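The collagen genes of the mouse were examined in ATAC-seq peak lists made from visceral fat of outbred CD-1 mice. Members were all protein-coding genes with curated RefSeq transcripts on chromosomes 1 to 19 whose symbol reads Col, a number, a and a number, which gave 42 of 20021 coding genes. ATAC-seq maps open chromatin, since a transposase cuts and tags DNA where it is accessible, and a peak marks a stretch with more tagged fragments than its surroundings. The study used these libraries to test how a CD-1 reference genome changes read mapping, and the lists analysed here were made on the mm10 build. It also compared the control libraries with each other. At peaks that differed, factor motifs overlapped bases that vary between CD-1 mice more often than random regions did. The paper proposes that such variants can pass for treatment effects, and advises removing or genotyping those sites. Neither was done here, and the part of genotype was not tested. The series held 2 control and 2 BPA libraries from animals of 8 weeks, and the study counted 4 mice, so each library stood for 1 outbred animal. Control animals descended from dams given sesame oil. BPA animals descended from dams that received bisphenol A, a plasticiser, at 50 mg/kg by intraperitoneal injection on embryonic days 7.5 to 13.5. In both groups the sampled animals were never injected themselves, and the labels and the methods name different generations for the BPA animals. The peak list recorded for BPA 2 carries another replicate number in its own name, and the record was followed. The labels gave neither sex nor batch, so a batch and the group cannot be told apart.

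Collagens are secreted or membrane-bound proteins whose chains wind into a triple helix. The fibrillar types build the tensile fibres of connective tissue. Type IV forms the sheet-like network of basement membranes, to which types XV and XVIII attach. In adipose tissue every adipocyte is wrapped in a basement membrane, and type VI filaments link that layer to the surrounding fibres. Fibroblasts and their progenitors make most fibrillar collagen, while endothelial cells, pericytes and adipocytes also make type IV. Tissue was processed in bulk, so that fewer cells of a type and less accessibility per cell cannot be told apart.

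Each list was ranked by its own −log10 q-value, and the rank is given as a percent of the list, with the strongest peak nearest to 0. A promoter was taken as 500 bp either side of any curated start site, and a peak counted when it overlapped the promoter by 1 bp or more. The lists held 82665 peaks in control 1 and 88911 in control 2, and 72375 in BPA 1 and 98060 in BPA 2. BPA 1 had the lowest local background, down to 1.16 fragments among 403 peaks spaced evenly over its list by p-value, against 2.7 to 3.8 among 401 or 402 such peaks of the others. With 2 libraries per group the smallest two-sided exact p-value is 0.333, so no test between groups was run, and counts are set beside the same counts over all coding genes. The adipose label was borne out by the markers, because all 7 adipocyte genes (such as Adipoq, Plin1 and Cidec) had promoter peaks in every library, while 0 of 3 hepatocyte genes had one in any.

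Collagen promoters were open about as often as other coding promoters, but their peaks stood lower in the lists. A promoter peak was present at 28 of 42 collagens in control 1 (66.7%) and 23 in control 2 (54.8%), and 28 in BPA 1 (66.7%) and 31 in BPA 2 (73.8%). Over all coding genes the shares were 63.5% in control 1 and 62.3% in control 2, and 65.1% in BPA 1 and 68.5% in BPA 2. The collagen mean was 25.5 ± 3.54 genes in controls and 29.5 ± 2.12 in BPA (SD, n = 2), and the groups touched because control 1 and BPA 1 gave the same count. In all 4 libraries a peak was found at 21 collagens (50%), against 58.8% of coding genes. In none it was found at 8 (19%), against 29.4%. The remaining 13 collagens had a peak in 1 to 3 libraries. Among the 21 collagens with a peak in every library the median rank was 30.1% in control 1 and 27.8% in control 2, and 26.8% in BPA 1 and 20.4% in BPA 2. The same medians over the 11782 coding genes with a peak in every library were 8.25%, 9.68%, 8.25% and 5.77%, so the typical collagen peak lay deeper in each list than the typical promoter peak.

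**Figure D1:**
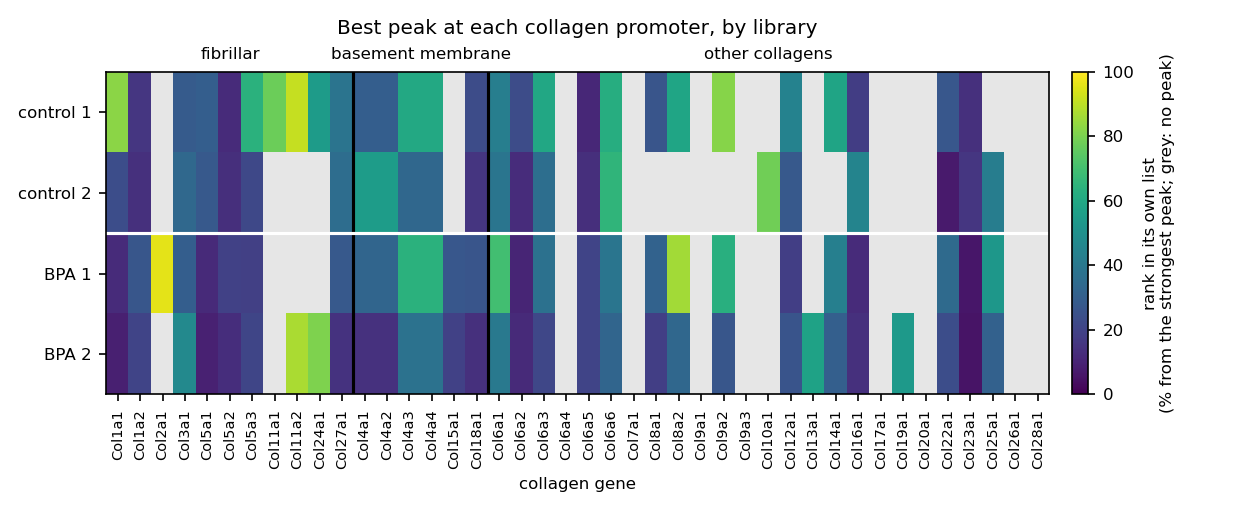
Rank of the best promoter peak (colour, percent of the library's own list, low values strongest) for each of the 42 collagens (columns, in 3 classes) in each library (rows), with grey where no peak lay within 500 bp of a start site. The 7 fibrillar and 5 basement membrane genes filled in every row contrast with the 8 grey columns, all among the other collagens.

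Each fibrillar gene was open in at least 1 library, and the chains of cartilage were among the weakest. Of its 11 genes 10, 7, 8 and 9 had a promoter peak in control 1, control 2, BPA 1 and BPA 2, and 7 had one in every library. Col1a1 and Col1a2 encode the chains of type I collagen, the main fibre of connective tissue. The Col1a1 peak ranked at 82.7% in control 1 and 23.6% in control 2, and 12.2% in BPA 1 and 8.72% in BPA 2. The low standing in control 1 came from a weak peak at the start site itself, with a pile-up of 23 fragments, while a stronger peak of control 1 at a rank of 13.8% lay just beyond the promoter. In the other libraries the summit, where most fragments overlap, lay 983, 793 and 982 bp inside the gene. Over that wider stretch the 4 libraries therefore ranked at 13.8%, 23.6%, 12.2% and 8.72%, and the BPA libraries still held the better places.

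Col1a2 went the other way. It ranked at 15.7% and 13.8% in the controls and at 26.8% and 20.4% in BPA 1 and BPA 2. The place of the summit differed as well, lying 756 and 757 bp inside the gene in the controls, and 13 bp before and 72 bp after the start site in BPA 1 and BPA 2. When the summit itself had to lie in the promoter, Col1a2 was thus found in BPA 1 and BPA 2 and not in the controls. Within each group the 2 summits lay close together. The promoter sequence of Col1a2 is shown because it holds the BPA 1 summit and ends just before that of BPA 2, on the plus strand at chr6:4505368-4505667 (GRCm38), from 250 bases before to 50 after the start, as are all promoters shown here. Capitals mark CCAAT or GGGCGG on either strand, with 2 matches of each.
Col1a2: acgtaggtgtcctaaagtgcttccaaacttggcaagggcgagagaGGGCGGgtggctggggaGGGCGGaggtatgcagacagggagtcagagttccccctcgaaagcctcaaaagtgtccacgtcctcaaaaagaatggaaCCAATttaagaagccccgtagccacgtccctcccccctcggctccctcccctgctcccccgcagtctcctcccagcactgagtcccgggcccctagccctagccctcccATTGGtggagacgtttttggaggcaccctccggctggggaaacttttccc

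Col3a1, the single chain of type III collagen in pliable tissues and vessel walls, ranked at 28.6% and 34.0% in controls and at 30.0% and 47.3% in BPA, with overlapping groups. Its promoter is printed as the most AT-rich of the collagens in the table of promoters, with 37.7% G+C and no CpG. Capitals mark its single TATAAA, and it lies at chr1:45311288-45311587 on the plus strand.
Col3a1: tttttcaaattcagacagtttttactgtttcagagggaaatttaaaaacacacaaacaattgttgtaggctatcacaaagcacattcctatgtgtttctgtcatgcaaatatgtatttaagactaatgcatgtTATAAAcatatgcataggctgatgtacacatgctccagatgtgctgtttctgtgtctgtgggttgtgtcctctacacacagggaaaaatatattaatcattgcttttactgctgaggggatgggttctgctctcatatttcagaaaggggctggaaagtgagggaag

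Type V collagen starts fibrils and limits their width, and its 3 genes were open in every library. Col5a1 ranked at 29.8% in control 1 and 27.8% in control 2, and 11.9% in BPA 1 and 9.21% in BPA 2. Its pile-ups were 44, 48, 99 and 301 fragments, and the peak spanned 969 and 638 bp in controls against 3502 and 3746 bp in BPA. Each control had a further peak over the same stretch, 1365 bp wide at a rank of 26.9% in control 1 and 1660 bp wide at 51.3% in control 2, where BPA had 1 peak. The local backgrounds were 11.7, 11.1, 16.2 and 57.4 fragments, so the raw pile-ups do not compare like with like. The fold of pile-up over background was 3.55, 4.04, 5.81 and 5.17. Both BPA libraries thus lay above both controls in rank and fold, while the widths compare split with unsplit peaks. Its promoter has the highest G+C of the collagens in the table, 75%, and is shown beside that of Col3a1 for contrast. It lies at chr2:27886175-27886474 on the plus strand, with GGGCGG or its complement in capitals.
Col5a1: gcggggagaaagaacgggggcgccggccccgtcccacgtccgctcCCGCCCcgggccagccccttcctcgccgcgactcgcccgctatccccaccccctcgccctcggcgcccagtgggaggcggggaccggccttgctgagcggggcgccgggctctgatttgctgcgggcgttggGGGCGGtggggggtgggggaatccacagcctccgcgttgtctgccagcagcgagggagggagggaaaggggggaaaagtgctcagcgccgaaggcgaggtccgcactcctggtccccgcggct

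Col5a2 ranked at 12.2%, 13.6%, 19.4% and 13.0% in control 1, control 2, BPA 1 and BPA 2, with overlapping groups. Col5a3 ranked at 63.7% and 21.6% in controls and at 19.1% and 21.0% in BPA, so that control 1 alone stood apart. Col27a1, a minor fibrillar collagen of cartilage and other tissues, ranked at 38.6% and 35.7% in controls and at 27.7% and 14.5% in BPA, without overlap. The other fibrillar genes were found in some libraries only. Col11a2 was listed in control 1 at 91.2% and in BPA 2 at 87.4%, Col24a1 in control 1 at 55.0% and in BPA 2 at 80.5%, Col11a1 in control 1 alone at 77.4%, and Col2a1 in BPA 1 alone at 95.9%. Col2a1 and both Col11 genes encode the fibril chains of cartilage, and their pile-ups of 10 to 26 fragments were among the smallest of the class. Of the chondrocyte markers Acan, Sox9, Comp and Matn1, Sox9 alone had a promoter peak, in every library.

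The basement membrane collagens were open in all but 2 instances. Of 6 genes, 5 had a promoter peak in each control and 6 in each BPA library. Type IV chains are encoded by genes in head-to-head pairs, in which both genes are read away from a shared promoter. With start sites on opposite strands at most 1000 bp apart, 984 such pairs of coding genes were found on these chromosomes, and the 2 that held a collagen both joined 2 type IV genes. Col4a1 and Col4a2 encode the chains found in basement membranes throughout the body. Their start sites on chromosome 8 lie at 11312826 and 11312805, 21 bp apart and with overlapping first exons, and 1 peak covered both in each library. It ranked at 30.1% in control 1 and 55.4% in control 2, and 32.8% in BPA 1 and 14.1% in BPA 2. The pile-ups were 42, 32, 54 and 219 fragments over local backgrounds of 10.8, 9.55, 13.4 and 52.2. BPA 2 was strongest, but control 1 was ahead of BPA 1, so the groups overlapped. With lists of equal length both BPA libraries were ahead at this promoter. The fold, for which 1 is added to both the pile-up and the background, was 3.64, 3.13, 3.81 and 4.13. The background, like the pile-up, was highest in BPA 2.

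The shared promoter is given on the Col4a2 strand at chr8:11312555-11312854, a window that also holds the Col4a1 start. It has 73.7% G+C and a CpG content of 0.818 of that expected from its base composition. Capitals mark 1 CCAAT and 3 GGGCGG matches on either strand.
Col4a1 and Col4a2: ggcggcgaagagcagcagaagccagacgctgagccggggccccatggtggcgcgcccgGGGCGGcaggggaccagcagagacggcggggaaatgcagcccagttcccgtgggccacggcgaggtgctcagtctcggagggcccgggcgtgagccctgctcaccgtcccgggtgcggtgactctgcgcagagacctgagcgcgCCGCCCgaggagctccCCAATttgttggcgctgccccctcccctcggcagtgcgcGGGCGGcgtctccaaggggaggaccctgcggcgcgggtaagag

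Col4a3 and Col4a4 encode chains of specialised basement membranes such as that of the kidney glomerulus. Their start sites on chromosome 1 lie 72 bp apart, at 82586921 and 82586849, again under 1 peak in each library. It ranked at 60.5% in control 1 and 33.6% in control 2, and 63.9% in BPA 1 and 37.9% in BPA 2. The groups overlapped. The pile-ups of 21, 29, 13 and 37 fragments were below those at Col4a1 and Col4a2 in every library, but so were the local backgrounds of 5.46, 4.81, 1.62 and 4.09. The fold was 3.41, 5.16, 5.33 and 7.47, against 3.64, 3.13, 3.81 and 4.13 at Col4a1 and Col4a2. It was thus lower than at that pair in control 1 alone.

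**Figure D2:**
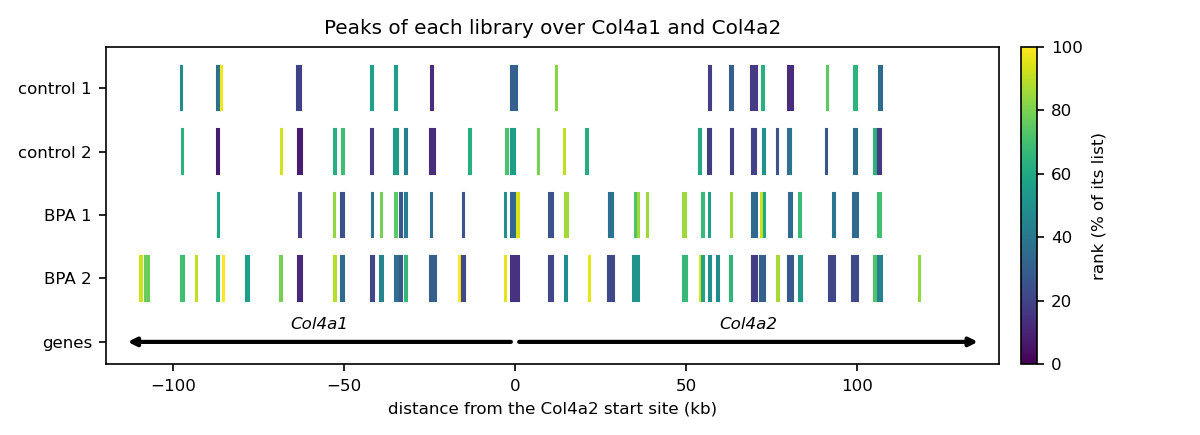
Peaks of each library (rows) along Col4a1 and Col4a2 by distance from the Col4a2 start (kb), coloured by rank in percent of the list (low values strongest), with arrows for the direction in which each gene is read. The shared promoter at 0 is marked in every row, and along the first part of Col4a2 the BPA rows hold bars where the control rows hold few.

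Types XV and XVIII are linked to sugar chains and sit at the outer face of basement membranes, mostly around vessels. Col15a1 was the only collagen whose promoter peak was shared by the BPA libraries and absent from the controls, 1 of 42 genes, where the share over all coding genes was 2.6%. It ranked at 27.0% in BPA 1 and 19.5% in BPA 2, with pile-ups of 38 and 124 fragments. Controls were not closed there. The nearest peak of control 1 began 741 bp and that of control 2 548 bp downstream of the start, just outside the promoter, and the stretch of overlapping peaks held all 4 libraries at 37.8%, 28.8%, 27.0% and 19.5%. With promoters of 1000 bp either side, Col15a1 was therefore found in all libraries. The promoter lies at chr4:47207762-47208061 on the plus strand, with 52.3% G+C and none of the motifs searched.
Col15a1: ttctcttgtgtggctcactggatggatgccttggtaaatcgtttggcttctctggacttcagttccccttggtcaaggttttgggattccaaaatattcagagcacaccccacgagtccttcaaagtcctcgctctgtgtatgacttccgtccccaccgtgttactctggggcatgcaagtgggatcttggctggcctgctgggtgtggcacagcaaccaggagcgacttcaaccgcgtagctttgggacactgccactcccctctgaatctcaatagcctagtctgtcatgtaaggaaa

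Col18a1, the source of the fragment endostatin, has 2 start sites with unlike patterns. At the downstream site, position 77113705 on chromosome 10, peaks ranked at 23.3% and 15.5% in controls and at 26.4% and 19.97% in BPA. At the upstream site, 77166530, a peak was present in BPA 1 at 31.5% and BPA 2 at 13.9% and in neither control. Control 2 had a weak peak at 92.3% that began 594 bp downstream. Both promoters are on the minus strand and are shown to set the unlike sites side by side. The upstream one (chr10:77166481-77166780) has 63.3% G+C and a CpG ratio of 0.538, with 3 GGGCGG and 1 CCAAT match in capitals, while the downstream one (chr10:77113656-77113955) has 59.7% G+C, a CpG ratio of 0.227 and no match.
Col18a1 upstream start: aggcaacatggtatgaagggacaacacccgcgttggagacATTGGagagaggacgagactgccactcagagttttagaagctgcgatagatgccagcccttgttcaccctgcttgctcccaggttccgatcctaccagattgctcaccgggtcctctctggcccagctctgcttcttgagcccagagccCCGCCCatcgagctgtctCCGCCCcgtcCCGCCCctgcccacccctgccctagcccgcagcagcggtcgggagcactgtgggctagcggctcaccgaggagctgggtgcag
Col18a1 downstream start: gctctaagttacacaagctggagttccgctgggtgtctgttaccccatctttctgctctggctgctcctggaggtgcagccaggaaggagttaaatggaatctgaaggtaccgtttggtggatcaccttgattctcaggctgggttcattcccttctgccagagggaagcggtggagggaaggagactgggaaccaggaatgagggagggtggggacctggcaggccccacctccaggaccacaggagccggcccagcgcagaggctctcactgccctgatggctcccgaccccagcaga

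The remaining 25 collagens split by family. Type VI genes, whose products form beaded filaments, were open at 5 of 6 in every library, the exception being Col6a4, at which no library had a peak. Among the collagens with a peak in every library, the 5 with the best worst rank were Col23a1, Col5a2, Col6a5, Col6a2 and Col18a1. Col6a2 ranked at 23.2% and 12.5% in controls and at 10.2% and 12.0% in BPA. Col6a5, a long type VI chain, ranked at 11.3% and 13.6% in controls and at 20.4% and 20.7% in BPA, and was the only collagen besides Col1a2 with both controls ahead. Col6a1, Col6a3 and Col6a6, the other open type VI genes, ranked between 21.4% and 69.6%, and Col6a6 had both BPA libraries ahead, at 38.7% and 32.8% against 62.3% and 65.6%.

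Col23a1, a collagen anchored in the cell membrane, had the strongest promoter peak of all collagens in both BPA libraries. It ranked at 13.7% and 16.0% in controls and at 6.10% and 5.25% in BPA, with pile-ups of 38 and 45 against 87 and 270 fragments and folds of 6.71 and 6.33 against 14.1 and 12.0. The groups did not overlap in any of these measures, and the peak lay at the start site itself, with summits at -201, -172, -184 and -64 bp from it. Its promoter is printed for that reason, at chr11:51289670-51289969 on the plus strand, with 67.7% G+C and 1 GGGCGG match on the other strand in capitals.
Col23a1: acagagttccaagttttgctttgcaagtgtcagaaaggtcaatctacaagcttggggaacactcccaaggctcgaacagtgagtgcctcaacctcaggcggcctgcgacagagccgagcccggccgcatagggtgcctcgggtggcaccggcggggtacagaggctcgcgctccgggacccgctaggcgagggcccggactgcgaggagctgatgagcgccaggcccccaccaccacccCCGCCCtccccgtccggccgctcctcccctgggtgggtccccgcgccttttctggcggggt

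The other membrane collagens were open in fewer libraries: Col25a1 in 3, Col13a1 in BPA 2 and Col17a1, an anchor of skin epithelium, in none. FACIT collagens, which decorate the surface of fibrils, were open in every library at 3 of 9 genes. These were Col12a1, Col16a1 and Col22a1, with ranks between 7.21% and 45.0%. Of the other FACIT genes Col14a1 and Col9a2 were open in control 1 and both BPA libraries, Col19a1 in BPA 2, and Col9a1, Col9a3 and Col20a1 in none. The short-chain network collagens Col8a1 and Col8a2, known from vessel walls and the cornea, were open in all libraries but control 2. Col10a1, a marker of growth plate cartilage, was listed in control 2 alone at 78.4%. Col7a1, which forms the anchoring fibrils under skin, Col26a1 and Col28a1 had no promoter peak in any library.

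Set side by side over all members, the ranks were better in both BPA libraries than in both controls at 12 collagens (28.6%), against 28.8% of coding genes. An absent peak was placed behind every listed one. The reverse held at 2 collagens (4.76%), Col1a2 and Col6a5, against 11.8%. No collagen had a promoter peak in both controls and neither BPA library, a pattern of 0.41% of coding genes. Among the 21 collagens with a peak in every library, the BPA libraries were ahead at 9 and the controls at 2, where the background was 41.2% and 18.6% of the 11782 coding genes. Both BPA libraries were thus ahead at about the same share of collagens as of coding genes. The 12 genes were Col1a1, Col5a1, Col5a3, Col27a1, Col15a1, Col6a2, Col6a6, Col9a2, Col12a1, Col14a1, Col16a1 and Col23a1.

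Which genes were called depended on how lists of unequal length were set side by side. With equal numbers of peaks the BPA libraries were ahead at 12 collagens and the controls at 5 (28.6% and 11.9%), against 30.9% and 12% of coding genes, and 9 of those 12 genes were shared with the lists as deposited. Col4a1 and Col4a2, which share a peak, and Col6a3 were gained and Col5a3, Col6a2 and Col12a1 lost. Col5a2, Col6a1 and Col22a1 joined the genes ahead in controls. Col5a1 and Col23a1 kept BPA ahead in each of 12 alternatives, and Col6a5 kept controls ahead in each of the same 12. Leaving out a library cannot undo such a call. Taking the most upstream start changes nothing for these genes, which have a single start site. Only the other alternatives could have moved them. Without control 1 the counts were 16 and 7, without control 2 they were 14 and 6, without BPA 1 they were 22 and 3, and without BPA 2 they were 13 and 8. The count of collagens with a promoter peak in the BPA libraries only was 5, 2, 3 and 2 in the same order. With a single library left in a group such patterns are easier to meet at any gene. The same counts over coding genes were not made, so these are no result about collagens.

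**Figure D3:**
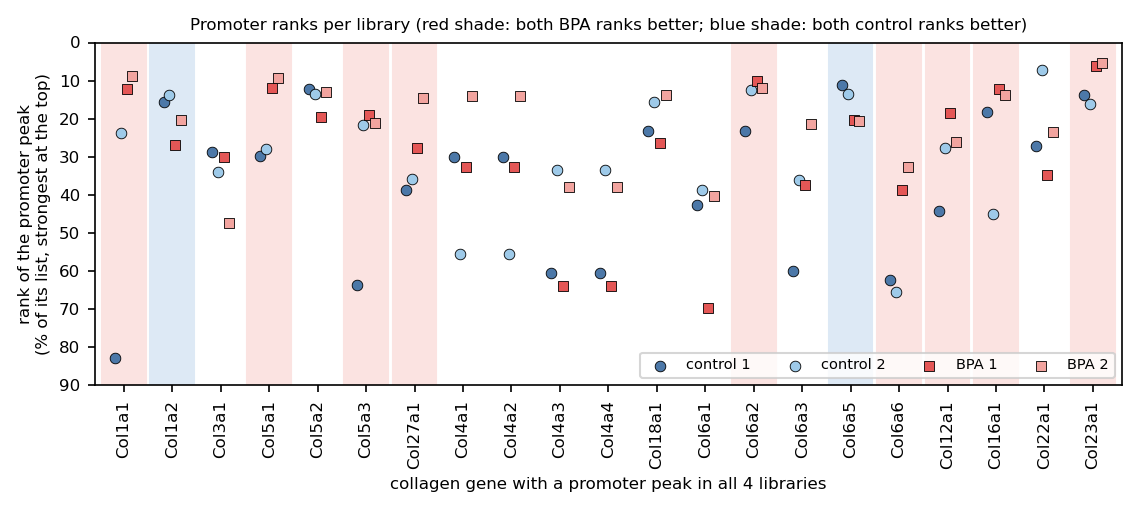
Promoter rank in each library (percent of its own list, strongest at the top; circles for controls, squares for BPA) for the 21 collagens with a peak in all 4 libraries. Red shading marks the 9 genes at which both BPA ranks were better and blue shading the 2, Col1a2 and Col6a5, at which both control ranks were better.

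Endothelial markers went with the groups. Of 10 endothelial genes 3 and 4 had a promoter peak in control 1 and control 2, and 10 in each BPA library. Pecam1, Cdh5, Emcn, Erg, Vwf and Egfl7 were listed in the BPA libraries only, a pattern of 2.6% of coding genes. The ranks of the 10 genes ran from 14.6% to 42.3% in BPA 1 and from 11.3% to 34.3% in BPA 2. Endothelial genes thus had 9 of 10 members with both BPA libraries ahead, where the collagens had 12 of 42 and the share over coding genes was 28.8%. Fibroblast and progenitor genes were open at 5, 5, 7 and 7 of 8, with Pi16 and Dpt in BPA only. Both BPA libraries were ahead at 4 of these 8 genes and both controls at 1, against 28.8% and 11.8% of coding genes. The latter was Pdgfrb, which ranked at 20.8% and 24.3% in controls against 27.4% in each BPA library. Pericyte and smooth muscle genes were open at 5, 4, 5 and 7 of 7, with both BPA libraries ahead at 2 of 7 (28.6%), about the share over coding genes. Open mesothelial genes numbered 4, 2, 2 and 1 of 5 and leukocyte genes 2, 2, 3 and 3 of 6. Epithelial genes gave 2, 0, 2 and 2 of 4 and Schwann cell genes 2, 2, 1 and 2 of 3. Rgs5 of pericytes, the macrophage gene Cd68 and the epithelial gene Cdh1 were also listed in BPA only. The epithelial gene Krt8 and the mesothelial genes Lrrn4 and Krt19 were listed in control 1 only. Both BPA libraries were ahead at 1 mesothelial, 1 leukocyte, 1 epithelial and 0 Schwann cell genes. Both controls were ahead at 1, 0, 0 and 1 in the same order. The 7 adipocyte genes, open in every library, had median ranks of 54.3% and 23.1% in controls and 64.7% and 51.2% in BPA, so that control 2 stood apart. Plin1, a coat protein of lipid droplets, ranked at 74.8%, 23.1%, 68.9% and 89.0% in the same order. Both BPA libraries were ahead at 2 of these 7 genes (28.6%), Pparg and Cebpa, and both controls at 0. Pparg ranked at 43.2% and 33.8% in controls and at 15.8% and 7.16% in BPA. The part of these cell types in the collagen differences was not tested.

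Collagen promoters without a peak in any library had the lowest median G+C and CpG content. RefSeq promoters of GRCm38.p6 were matched for 36 start sites of 33 collagens, and Col1a1, Col2a1, Col4a3, Col5a2, Col9a3, Col12a1, Col14a1, Col22a1 and Col26a1 had no match. Over these 36 the median G+C was 60%, against 57% over 19504 coding promoters, while the median CpG content was lower, 0.456 of the expected against 0.6. The 17 start sites with a peak in every library had a median G+C of 63.3% and a CpG ratio of 0.489. The 7 with none had 50% and 0.0536. The 12 with a peak in 1 to 3 libraries lay at 60.1% and 0.54. The median G+C thus rose over these groups, while the CpG ratio was not highest where every library had a peak. Col3a1, with the fewest G and C bases of all, was open in every library and lay outside this pattern. Collagen start sites share genes and families, so these values are a description. Coding promoters were not split in the same way, and whether the pattern is particular to collagens was not tested.

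**Figure D4:**
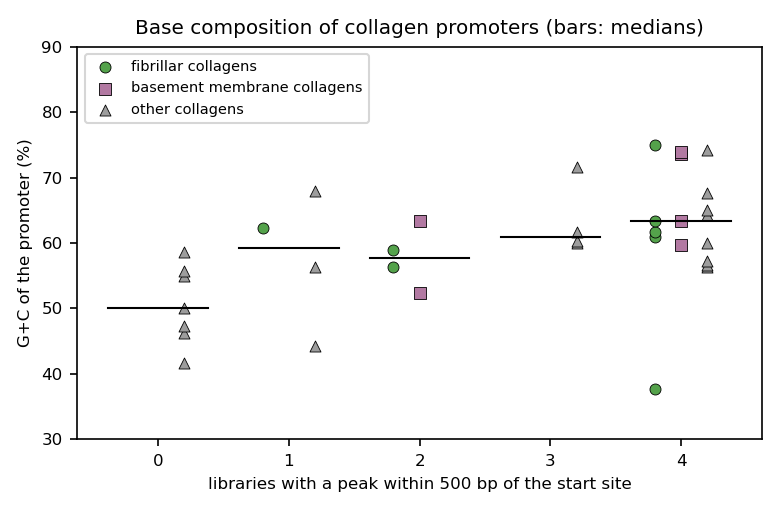
G+C of the 300-base promoter (percent) of 36 collagen start sites against the number of libraries with a peak within 500 bp, by class (colours and shapes), with bars at the medians. The medians are 50% with no library and 63.3% with all 4, and the low point at 4 libraries is Col3a1 at 37.7%.

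Short motifs were searched on both strands of the same 300 bases. GGGCGG, the core of the GC box, was found at 21 of 36 collagen start sites (58.3%), against 48.1% of coding promoters. CCAAT was found at 12 (33.3% against 38%), TATAAA at 5 (13.9% against 12.4%) and TGANTCA, the letters bound by AP-1 factors, at 1 (2.78% against 7.12%). GGGCGG was held by 12 of the 17 start sites open in every library (70.6%) and by 2 of the 7 open in none (28.6%). The other coding promoters were not split by openness, so whether this difference is particular to collagens was not tested. Fibrillar promoters held it at 6 of 8, basement membrane promoters at 3 of 6. A match describes the letters and not a bound factor.

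Collagen genes are long, and most of their peaks lay in introns. A locus was taken from 20 kb before the first start site to the gene end, and peaks of the 4 lists that overlapped by 1 bp or more were merged into regions. The collagen loci held 491 regions, of which 447 lay outside promoters of coding genes. The best summit lay in an intron for 382, in an exon for 28, upstream of the gene for 77 and past the gene end for 3. The remaining 1 lay inside Col6a2 but outside its longest transcript. Collagen loci had a median of 9.91 regions per 100 kb, against 8.48 over all coding genes. The median was 13.1 for basement membrane, 10.9 for fibrillar and 9.1 for other collagens.

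Of the 491 regions, 123 were present in all 4 libraries (25.1%), against 30.1% over the loci of all coding genes. Both BPA libraries and neither control held 61 (12.4%), against 9.83%. Both controls and neither BPA library held 26 (5.3%), against 4.59%. A single library held 182 (37.1%), against 35.6%, and 86 of these were in BPA 2, the longest list. Shares of both group-specific patterns were thus slightly above those of coding loci. Outside promoters, 92 of 447 collagen regions (20.6%) were present in all 4 libraries, about the share over coding loci, 16497 of 79135. Regions in BPA only numbered 59 there (13.2%), against 8616 of 79135, and those in controls only 26 (5.82%), against 4176. Without BPA 1 the regions in BPA only rose in number to 147 and those in controls only to 34, without control 2 they were 95 and 71, without control 1 they were 74 and 67, and without BPA 2 they were 80 and 51. Both patterns are easier to meet with a single library in a group, and coding loci were not recounted in this way.

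**Figure D5:**
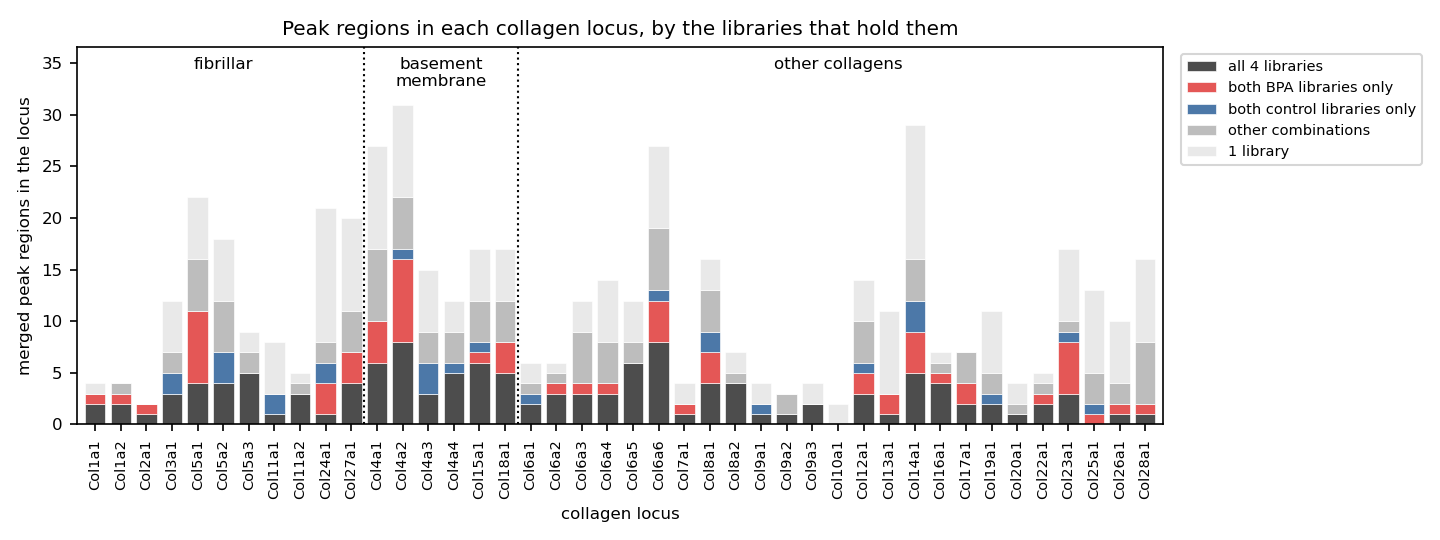
Number of merged peak regions in each of the 42 collagen loci, stacked by the libraries that hold them (dark grey all 4, red both BPA only, blue both controls only, mid grey other combinations, light grey 1 library). The Col4a2 bar is the tallest with 31 regions, 8 of them in BPA only, while Col3a1, Col5a2 and Col4a3 show blue and no red.

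Regions found in BPA only were unevenly spread over the loci. Col4a2 held 31 regions, 8 in all libraries, 8 in BPA only and 1 in controls only. Col4a1 held 27, with 4 in BPA only and 0 in controls only, and 2 of the BPA regions were shared with the Col4a2 locus, since each gene lies in the upstream part of the other. Col5a1 held 22, with 7 in BPA only and 0 in controls only, but these 7 were weak, with ranks from 35.4% to 98.4%. The 8 at Col4a2 included weak ones too, with ranks from 20.9% to 85.4%. Col23a1 had 5 against 1. Among the loci with the opposite direction, Col4a3 had 0 in BPA only and 3 in controls only, Col5a2 0 and 3, and Col3a1 and Col11a1 0 and 2 each. Over the classes the counts in BPA only and controls only were 16 and 9 of 125 for fibrillar, 14 and 5 of 105 for basement membrane and 31 and 12 of 261 for other collagens. Endothelial markers went with the groups as given above, and their part in the type IV regions was not tested.

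The strongest BPA-only region of the type IV pair lay in intron 3 of Col4a2, at chr8:11322741-11324044, and ranked at 25.3% in BPA 1 and 20.9% in BPA 2. Next to it in rank was a region in intron 1 of Col4a1, at chr8:11297351-11298141, with 25.9% and 21.7%. The 101 bases around the summit of the former, chr8:11323201-11323301 on the plus strand, are shown with the 1 CCAAT match in capitals.
Col4a2 intron 3: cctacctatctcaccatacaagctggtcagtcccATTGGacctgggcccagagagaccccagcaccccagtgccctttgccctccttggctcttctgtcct

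Outside promoters, the regions with the best worst rank were named for each pattern. In all 4 libraries these were a region upstream of Col9a3 with its summit at -15511 bp (chr2:180582207-180583370), ranked at 9.58%, 10.0%, 9.34% and 7.40%, one upstream of Col5a3 at -16053 bp (chr9:20830224-20831431), ranked at 11.0%, 5.09%, 9.47% and 10.6%, and one in intron 5 of Col23a1 (chr11:51539227-51540130), ranked at 10.1%, 12.9%, 13.1% and 14.3%. The latter pair ranked ahead of the Col5a3 and Col23a1 promoters in both controls. Col9a3 itself, a cartilage FACIT chain, had no promoter peak, so the nearest collagen need not be the gene to which a region belongs.

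In BPA only, the leading regions lay in intron 22 of Col22a1 (chr15:71926768-71928066, 19.6% and 11.7%), intron 2 of Col8a1 (chr16:57641180-57642041, 23.2% and 15.6%) and intron 24 of Col6a6 (chr9:105731784-105732685, 23.4% and 23.7%). In controls only they lay in intron 1 of Col8a1 (chr16:57701438-57702207, 6.59% and 30.7%), intron 2 of Col8a1 (chr16:57643198-57644577, 32.0% and 23.5%) and exon 36 of Col12a1 (chr9:79648673-79649427, 29.5% and 40.2%). Col8a1, a collagen of vessel walls, thus held leading regions of both patterns, and the 2 in its intron 2 were close neighbours. The plus strand around their summits is shown for this reason, 101 bases each, at chr16:57641618-57641718 and chr16:57644165-57644265. Neither holds a searched motif, so no letters are in capitals.
Col8a1 intron 2, BPA only: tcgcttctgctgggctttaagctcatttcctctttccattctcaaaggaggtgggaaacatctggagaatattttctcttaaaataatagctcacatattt
Col8a1 intron 2, controls only: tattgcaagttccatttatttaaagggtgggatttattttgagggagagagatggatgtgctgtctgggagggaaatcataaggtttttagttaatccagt

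The same motifs were counted in the 101 bases around the best summit of each region outside promoters. TGANTCA was found at 10 of 92 regions in all libraries (10.9%), 8 of 59 in BPA only (13.6%) and 0 of 26 in controls only, against 6.63%, 6.96% and 5.82% for the same patterns over all coding loci. The median G+C was 49%, 52.5% and 44.1% in the same order, against 50.5%, 50.5% and 45.5%. The higher G+C of BPA-only regions than of control-only regions was thus a feature of all coding loci as well. CCAAT was found at 12 (13%), 9 (15.3%) and 7 (26.9%) of these regions, against 12.9%, 10.9% and 13.8%.

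Genes that make, cross-link or bind collagen or act on its degradation were counted together with basement membrane partners and fibril-associated genes. Both BPA libraries were ahead at 41 of these 75 (54.7%), against 28.6% of collagens and 28.8% of coding genes. Both controls were ahead at 5 (6.67%), against 11.8%. A promoter peak in every library was carried by 51 (68%), against 58.8% of coding genes, and a gene without any peak cannot be called. Among these 51 the BPA libraries were ahead at 32 and the controls at 5, where the background was 41.2% and 18.6% of coding genes open in every library. The pathway and marker genes were not recounted under other settings, and the libraries are the same as those at the collagens. Collagen biosynthesis genes were open in every library at 18 of 20, and both BPA libraries were ahead at 12. P4ha1, a chain of the prolyl hydroxylase that stabilises the helix, ranked at 8.10% and 4.70% in controls and at 1.29% and 0.688% in BPA. Serpinh1, the collagen chaperone, ranked at 43.2% and 21.1% in controls and at 18.7% and 16.8% in BPA. P3h4 and Fkbp10 shared 1 peak in 3 libraries, at the same ranks, so they are not independent.

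Genes of procollagen cleavage and cross-linking were ahead in BPA at 6 of 13 and in controls at 2. Pcolce, an enhancer of procollagen cleavage, ranked at 67.8% and 83.3% in controls and at 13.7% and 15.7% in BPA. Lox, the enzyme that cross-links fibrils, ranked at 8.91% and 9.47% in controls and at 16.4% and 19.7% in BPA. Of the receptors, 4 of 9 were ahead in BPA, and Itga11, an integrin chain of fibroblasts, was open in BPA only, at 36.8% and 24.3%. Itga1, the integrin chain that binds type IV collagen, was ahead in controls, at 2.74% and 2.15% against 8.45% and 4.88%. Both BPA libraries were ahead at 6 of the 10 genes listed for degradation. These were the collagenase Mmp14, the gelatinase Mmp2, Ctsk, Mrc2 and the metalloproteinase inhibitors Timp2 and Timp3.

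Basement membrane partners of type IV, the laminins, nidogens and proteoglycans, were ahead in BPA at 9 of 14 and in controls at 0. Hspg2, which encodes perlecan, ranked at 68.3% and 39.1% in controls and at 18.2% and 9.55% in BPA. The type IV genes themselves had 0 of 4 with both BPA libraries ahead, or 2 of 4 with lists of equal length. Each head-to-head pair shares a peak, so its genes are not independent. Fibril-associated genes were ahead in BPA at 4 of 9, and the fibril proteoglycan Lum was ahead in controls, at 25.96% and 38.9% against 68.2% and 39.9%. The remaining genes ahead in controls were Fkbp14 and Adamts3.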

How the data were processed

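ATAC-seq of visceral adipose tissue (Omni-ATAC protocol) was analysed from 4 deposited peak lists, 1 per library, with groups and replicate numbers taken from the sample titles. The authors trimmed reads with Trim Galore, mapped them to mm10 with Bowtie2 2.3.5.1, removed reads without a unique place and PCR duplicates (SAMtools), and ran MACS2 2.2.7.1 separately per library, so that replicates were not pooled. Other peak calling options, including any shift of reads for the transposase, are not given in the sources used here. The deposited score is the −log10 q-value times 10 in whole numbers. The deposited ratio, or fold, divides the summit pile-up plus 1 by the local background plus 1. MACS2 derived the deposited −log10 p-value from a Poisson distribution and the −log10 q-value by adjusting it, and the lists end at a q-value of 0.05. Scores were not used.

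Coding genes with curated transcripts were taken from RefSeq on GRCm38.p6, the assembly of mm10. Ranks, overlaps, merged regions and motifs were computed with Python 3.11.15, numpy 2.4.6 and pandas 2.3.3, and figures with matplotlib 3.10.9. The lists hold no read totals, so the depth behind a peak is given as the pile-up and local background, solved from the fold and p-value with scipy 1.17.1 and tested, like the overlap counts, on simulated data. Replicates were taken as separate animals. No test between groups was run.

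Values in every library were given for fibrillar and basement membrane collagens, for collagens open in 1 group only, for the 5 with the best worst rank, for head-to-head pairs, and for the 3 leading regions of each pattern outside promoters. Other genes named were chosen after their values were seen. The members, the gene lists (collagen classes, collagen pathway, cell type markers) and the rules were chosen with earlier results of these data known. Alternatives were other promoter widths, the summit or the most upstream start in place of the whole promoter, a −log10 q-value of at least 5, equal numbers of peaks, the best 20000 peaks, loci with no or 50 kb of upstream sequence, a 50% overlap between replicates, type IV alone as basement membrane class, ranks by fold, and leaving out each library.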

Additional observations from a re-analysis of the deposited data

How the results depend on the processing

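Of 138 values under other settings, 100 stayed within 1.5 times the value as reported, over 13 results. With the best 20000 peaks of each list, the mean number of collagens with a promoter peak was 7.5 in controls and 12.5 in BPA, 5 had one in every library (2 fibrillar, 1 basement membrane), 25 had none, 3 had one in BPA only, 5 were ahead in BPA, and loci held 18 regions in every library, 16 in BPA only and 7 in controls only; this setting keeps fewer peaks by construction. With only peaks at a −log10 q of 5 or more, 3 collagens had a promoter peak in BPA only, 1 was ahead in controls, 3 basement membrane collagens were open in every library and 10 locus regions were in controls only. With the summit in the promoter these were 2, 1 and 3, and the cause was not tested. Collagens open in BPA only numbered 2 with promoters of 1000 bp (Col13a1 and Col2a1), 2 with 250 bp and 2 with the most upstream start. With equal numbers of peaks 5 were ahead in controls. A 50% overlap between replicates left 17 control-only regions.

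Leaving out each library gave 23 to 28 collagens with a promoter peak in the remaining control, 28 to 31 in the remaining BPA library, 21 to 25 in every library, 9 to 10 in none, 2 to 5 in BPA only and 0 to 1 in controls only. It gave 13 to 22 ahead in BPA and 3 to 8 ahead in controls, 7 fibrillar and 5 basement membrane collagens in every library each time, and 131 to 156, 74 to 147 and 34 to 71 locus regions in every library, in BPA only and in controls only. With 1 library in a group the same patterns are easier to meet, and these counts were not made over all coding genes. Col5a1 and Col23a1 (BPA ahead) and Col6a5 (controls ahead) held in 12 of 12 settings. Leaving out a library or taking the most upstream start could not have undone these calls. No paired analysis was possible because the counts come from no test, and the shared replicate numbers mark no shared animal.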

Other observations

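The type IV chains encoded on the X chromosome were outside the gene set but complete the family. Col4a5 carried a promoter peak in all 4 libraries, ranked at 40.4% and 23.97% in the controls and at 63.5% and 33.0% in BPA. Its neighbour Col4a6, read in the other direction, had a weak peak at 96.2% in BPA 1 and none in the other libraries. The groups overlapped at both genes.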
